A study of Solanum lycopersicum with 2 samples.

Results

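In tomato (Solanum lycopersicum, cultivar Moneymaker), 140 abundant genes were found at nearly the same level in anthers and in young leaves, out of 1248 abundant genes and 25923 genes listed in either library. They were chosen by their levels: a mean of both libraries of at least 100 RPM (reads per 1000000 mapped reads) and a log2 ratio, log2((anther RPM + 1) / (leaf RPM + 1)), between -0.25 and 0.25. A ratio inside these limits means an anther level of 0.841 to 1.19 times the leaf level. The genes are called equal-level genes here, and the other 1108 genes whose mean was at least 100 RPM are called the other abundant genes. Because the levels chose the genes, their levels and ratios are given as a description.

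The levels came from MACE, a sequencing method that reads cDNA near the 3′ end of polyadenylated transcripts and is meant to give 1 read per transcript. The study asked about orthologs of ribosome biogenesis factors in a vegetative and a reproductive tissue. It had 1 anther library, from anthers of several developmental stages, and 1 library from young leaves, both from untreated plants that were 8 weeks old and grew in a glasshouse with 16 h of light and 8 h of dark. The anther library held 12411606 mapped reads and the leaf library 11534512, of which 69.2% and 72.5% lay on listed genes. With 1 library per tissue no replicate check and no test between tissues could be made, so there are no p-values. The identifiers come without gene names in the sources used here, so the tissue labels could not be checked against marker genes and no function is given for any identifier.

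Genes that different organs transcribe at similar levels are often called housekeeping genes. The textbook members of this class encode ribosomal proteins, translation factors, parts of the proteasome, the cytoskeleton and the respiratory chain. A gene of stable level is also what quantitative PCR uses to scale other genes. An RPM value is a share of a library's reads, so equal RPM means an equal share and not an equal number of transcripts per cell. An anther holds wall, tapetum and pollen cells and a leaf holds mesophyll, epidermis and vein cells, so fewer cells of a type and less RNA per cell cannot be told apart in either library.

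The equal-level genes made up 11.2% of the 1248 abundant genes, and they took about the same small part of both libraries. Together they held 384329 anther reads, which was 4.47% of the anther reads on listed genes (exact 95% binomial interval 4.46% to 4.49%). In leaves they held 357017 reads, or 4.27% of the reads on listed genes (4.26% to 4.28%). Relative to all mapped reads the shares were 3.10% in both libraries, a closeness that follows from the rule. The shares of listed-gene reads have unlike denominators, since 69.2% of the anther and 72.5% of the leaf mapped reads lay on listed genes. The intervals of these shares cover counting error only and are not a comparison of the tissues. All 1248 abundant genes held 57.9% of the listed-gene reads in anthers and 61.7% in leaves, so 7.73% and 6.92% of the reads of abundant genes came from genes at equal level.

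Most equal-level genes lay in the lower part of the abundant range. In anthers the lowest had 98.6 RPM, the median 164 RPM and the highest 1973 RPM. In leaves the lowest had 92.9 RPM, the median 162 RPM and the highest 2336 RPM. The mean of both libraries had a median of 162 RPM over the equal-level genes and 189 RPM over the other abundant genes, whose highest mean was 8128 RPM. The upper quartiles were 242 RPM and 319 RPM, so most of the other abundant genes also lay in the lower part. Among the top 100 genes by level, 3 were equal-level genes in anthers and 3 in leaves. Among the top 500, 42 were equal-level genes in anthers and 53 in leaves.

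**Figure D1:**
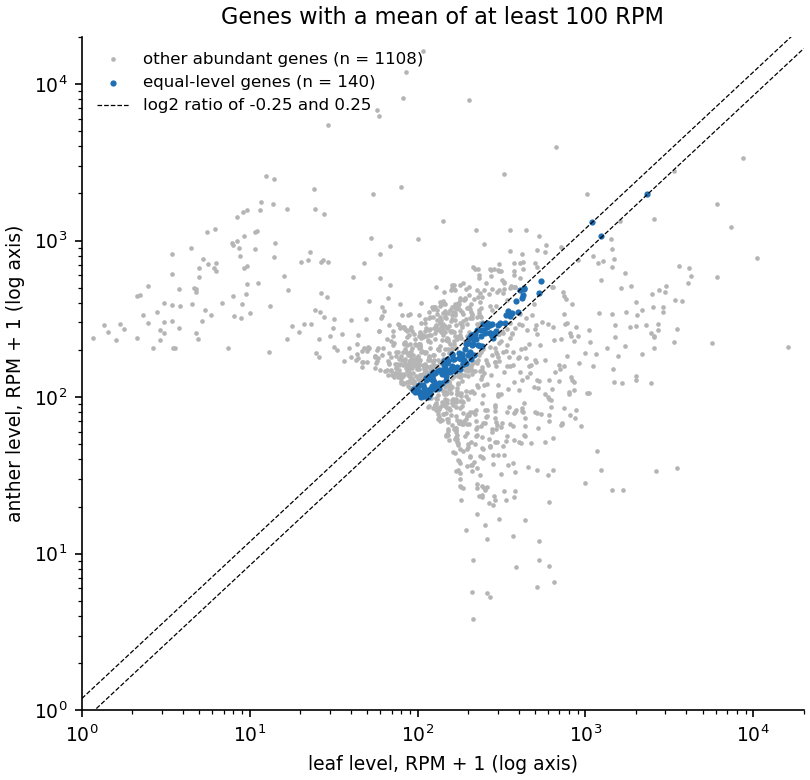
Each point is a gene whose mean was at least 100 RPM, with its leaf level on the x axis and its anther level on the y axis, both as RPM + 1 on log axes. The 140 equal-level genes (blue) lie between the dashed lines that mark log2 ratios of -0.25 and 0.25, and all but 3 of them lie below 1000 RPM, whereas the 1108 other abundant genes (grey) spread far to both sides.

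The 3 equal-level genes above 1000 RPM were well apart from the rest. Solyc01g111170.2 on chromosome 1 had 1973 RPM in anthers, where it ranked 18, and 2336 RPM in leaves, where it ranked 34. Its log2 ratio was -0.24, near the lower limit. Solyc08g006890.2 on chromosome 8 had 1307 RPM in anthers and 1100 RPM in leaves, and its log2 ratio of 0.25 was the highest of the equal-level genes. Solyc04g077020.2 on chromosome 4 had 1073 RPM in anthers and 1239 RPM in leaves, a log2 ratio of -0.21. Each of the 3 lay towards an edge of the permitted range, and each had a fractional read count in at least 1 library. Together they held 14.1% of the equal-level genes' reads in anthers and 15.1% in leaves. Without them, the other 137 genes held 3.84% of the listed-gene reads in anthers and 3.62% in leaves.

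Below these 3 the next equal-level gene was far lower, and with scaling to mapped reads its values in the tissues were nearly identical. Solyc02g081170.2 on chromosome 2 had 551 RPM in anthers and 546 RPM in leaves, from 6836 and 6302 reads. Its log2 ratio was 0.01, with a 95% counting interval of -0.04 to 0.06, and its counts were whole in both libraries. Solyc04g078070.2 had 462 RPM in anthers and 530 RPM in leaves, a log2 ratio of -0.20. Solyc02g082700.2 had 493 RPM in anthers and 432 RPM in leaves, a log2 ratio of 0.19. With scaling to mapped reads both lay off 0 by more than their counting error, in opposite directions. The ratio of Solyc02g082700.2 fell to 0.05 with TMM scaling (described at the end) and to 0.01 with the median ratio of the abundant genes set to 0, distances from 0 within its counting error. Solyc05g053810.2 had 425 RPM in anthers and 421 RPM in leaves, and its log2 ratio of 0.01 had a counting interval of -0.04 to 0.07. Solyc07g052980.2 had 342 RPM in anthers and 362 RPM in leaves, a log2 ratio of -0.08 with an interval of -0.15 to -0.02. Solyc02g081170.2, Solyc02g082700.2, Solyc05g053810.2 and Solyc07g052980.2 were the most abundant equal-level genes with whole reads in both libraries. With TMM scaling and with the median ratio set to 0, Solyc02g081170.2 and Solyc05g053810.2 each had ratios of -0.13 and -0.16. Those of Solyc04g078070.2 were -0.34 and -0.37, and those of Solyc07g052980.2 were -0.22 and -0.26. With scaling to reads on listed genes these genes had 0.08, 0.08, -0.13 and -0.02, so near identity held in single scalings only.

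Equal level meant a ratio inside the limits and not an identical level. The log2 ratios ran from -0.247 to 0.249 with a median of 0.01, against a median of 0.18 over all 1248 abundant genes. With scaling to mapped reads the anther level was the higher one in 78 genes and the leaf level in 62, but this split turned with the scaling. It was 42 and 98 with TMM scaling, 30 and 110 with the median ratio of the abundant genes set to 0, and 87 and 53 with scaling to reads on listed genes. The log2 ratio was within 0.05 of 0 in 22 genes and within 0.1 in 48, and it was beyond 0.2 in 31. For each gene a 95% interval of the ratio without the pseudocount was computed from the reads (exact conditional binomial), and it had a median width to either side of 0.09 on the log2 scale. In the mapped-read scaling the interval included 0 in 41 genes and left it out in 99. The other scalings shifted the log2 ratios by about -0.14, 0.07 and -0.18, so this count describes the mapped-read scaling only. In that scaling the interval of the ratio was also set against the limits. It lay wholly between -0.25 and 0.25 in 84 genes and passed a limit in 56. Conversely, the interval of 58 of the 1108 other abundant genes reached into the permitted range. These intervals hold counting error only and no variation between plants, and MACE reads without molecular identifiers need not be independent molecules.

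**Figure D2:**
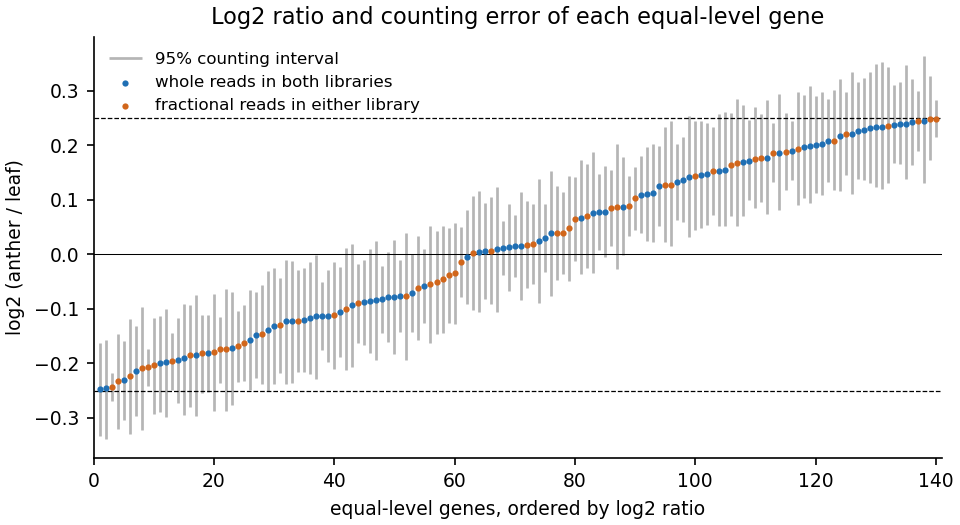
The 140 equal-level genes are ordered along the x axis by their log2 ratio of anther to leaf level, which is on the y axis. Points are the ratios with the pseudocount, blue for genes with whole reads in both libraries and orange for genes with fractional reads, grey bars are 95% counting intervals without the pseudocount, and dashed lines mark -0.25 and 0.25. The bars of 56 genes cross a dashed line and those of 41 genes include 0.

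The genes beside the limits showed how little separated inside from outside. At the upper limit Solyc10g008870.2 was inside with 248 RPM in anthers and 209 RPM in leaves, a log2 ratio of 0.249. Solyc09g091820.2 was outside with 145 RPM in anthers and 122 RPM in leaves, a log2 ratio of 0.251, and Solyc09g005590.2 followed with 0.255. At the lower limit Solyc01g011000.2 was inside with 174 RPM in anthers and 206 RPM in leaves, a log2 ratio of -0.247, and Solyc02g077410.2 was inside with -0.246. The nearest genes outside it were Solyc01g103450.2 and Solyc05g005190.2, with log2 ratios of -0.251 and -0.255. At the level limit Solyc05g054920.2 and Solyc02g091840.2 were inside with means of 100.9 and 101.3 RPM, and Solyc10g007180.2 and Solyc09g010520.2 were outside with means of 99.7 and 99.6 RPM and log2 ratios of -0.20 and -0.19. For the genes named at the upper and lower limits of the ratio, the distance from that limit was smaller than the counting error.

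Genes at equal level were a smaller part of the abundant genes than of the less abundant ones. Over the 17137 genes whose mean was at least 1 RPM, 3412 (19.9%) had a log2 ratio between -0.25 and 0.25. The share was 20.1% among genes of 1 to 10 RPM, where the pseudocount draws ratios towards 0. It was 21.5% among the 4991 genes of 10 to 30 RPM and 20.5% among the 3050 genes of 30 to 100 RPM. Above 100 RPM it was 13.2% (90 of 681) at 100 to 200 RPM and 13.1% (32 of 244) at 200 to 300 RPM. It was 5.93% (15 of 253) at 300 to 1000 RPM and 4.29% (3 of 70) at 1000 RPM or more. Of the abundant genes outside the range, 354 (28.4% of the 1248) were at least 2-fold higher in anthers, 340 (27.2%) were at least 2-fold higher in leaves and 414 lay between.

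**Figure D3:**
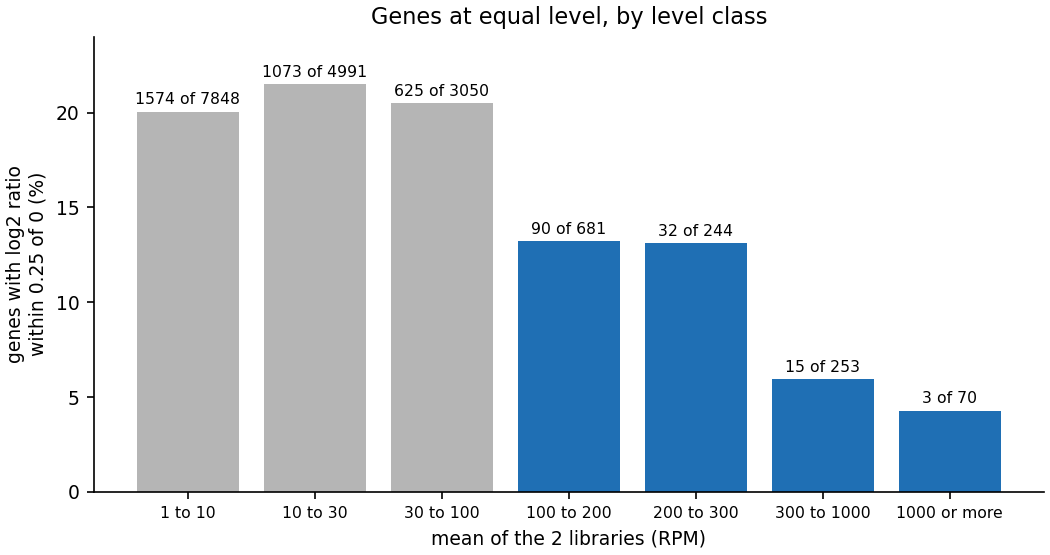
Bars give the percentage of genes with a log2 ratio between -0.25 and 0.25 (y axis) in classes of mean level in RPM (x axis), with the number of such genes and of all genes of the class above each bar. Blue bars are the classes that hold the equal-level genes: their shares are 13.2%, 13.1%, 5.93% and 4.29%, against 20.1% to 21.5% in the grey classes below 100 RPM.

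Fractional read counts were about as common among equal-level genes as among the other abundant genes. A count that is not whole within 1e-06 reads is called fractional, and the headers do not say how fractions arose. Counts were fractional in either library for 58 of the 140 equal-level genes (41.4%) and for 487 of the 1108 other abundant genes (44.0%). The share was 39.9% in the 414 genes under 2-fold apart, 51.4% in the genes at least 2-fold higher in anthers and 41.2% in those at least 2-fold higher in leaves. Of the 58 equal-level genes, 21 were fractional in both libraries, 20 in anthers only and 17 in leaves only. So 37 of the 58 had a fraction in one tissue and a whole count in the other. In 40 of the 58 (69.0%) each fraction was exactly 0.5, as in Solyc01g111170.2 with 24486.5 anther reads and 26940.5 leaf reads. The same held for 283 of the 487 fractional genes among the other abundant ones (58.1%). The equal-level genes with fractional counts had a median mean level of 168 RPM and those with whole counts 159 RPM, a smaller distance than the 217 and 172 RPM in the other abundant genes.

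The rule did not use the peak height, and its ratio to the gene's reads was also close between the tissues. The files give the height of the highest read peak of each gene, and this height divided by the gene's reads is called the peak share here. Whether that peak is made of the same reads is not stated in the headers. All 140 equal-level genes had 100 or more reads in each library and a peak share under 100%. In anthers the peak share was 12.1% at the lowest, 24.6% at the median and 58.7% at the highest. In leaves it was 13.1%, 24.4% and 62.4%. In 109 of the 140 genes it lay between 20% and 30% in both libraries. The same gene, Solyc07g065490.2, had the lowest peak share in both libraries, with 12.1% in anthers and 13.1% in leaves, and it is named here after its values were seen. The 1034 other abundant genes that met these conditions had similar medians, 24.7% in anthers and 24.4% in leaves. Their quartiles were 22.2% and 27.6% in anthers and 22.2% and 27.8% in leaves.

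Across the equal-level genes, which are not replicates and whose values share the same 2 libraries, the peak shares of anthers and leaves were correlated with Pearson r = 0.96 and Spearman rho = 0.89. Pearson r was 0.93 without the 2 genes farthest from the median and 0.90 over the 135 genes whose identifier ends in 2. In the 82 genes with whole counts it was 0.97. The median absolute difference between the tissues was 1.09 percentage points and the 90th percentile was 2.59 points. In the 1034 other abundant genes that met the same conditions, r was 0.92, rho 0.88, the median absolute difference 1.12 points and the 90th percentile 3.31 points. In the 414 abundant genes under 2-fold apart, r was 0.98 and rho 0.92, both higher than in the equal-level genes. Their median absolute difference was 0.94 points, the 90th percentile 2.69 points and the largest difference 9.21 points. Close agreement was thus not particular to the equal-level genes. The peak share differed by over 5 points in 2 equal-level genes (1.43%), in 6 genes under 2-fold apart (1.45%) and in 43 of the other abundant genes as a whole (4.16%). The highest difference was 5.47 points in the equal-level genes and 66.9 points in the other abundant genes. Read numbers were unlike: every equal-level gene had at least 1224 anther and 1072 leaf reads, whereas the condition asked only 100 of the other genes. No test was made of these differences, and the part of counting error in them was not tested.

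**Figure D4:**
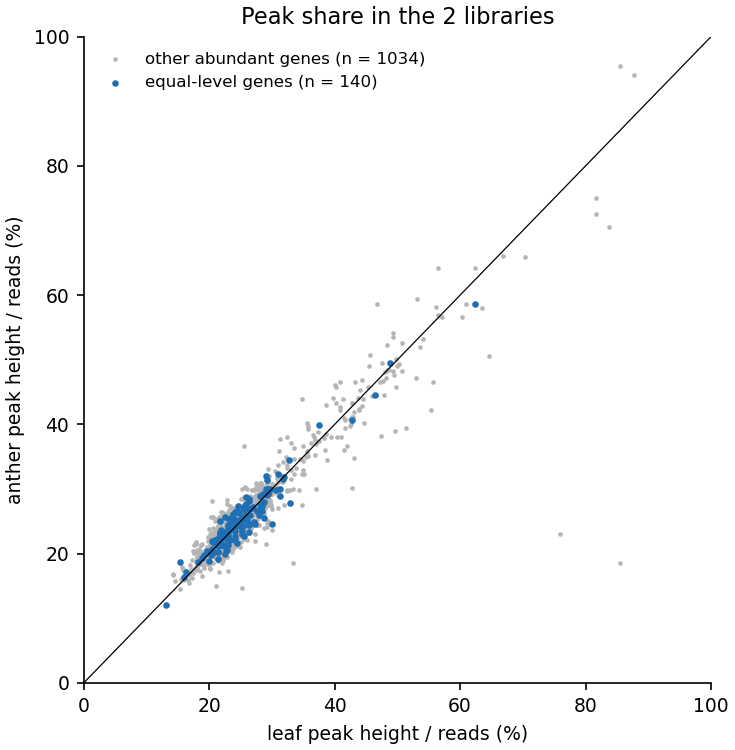
Each point is an abundant gene with 100 or more reads in each library, with its leaf peak share (peak height divided by reads, in percent) on the x axis and its anther peak share on the y axis, and the line marks equality. The 140 equal-level genes (blue) lie close to the line, with a largest difference of 5.47 percentage points, and most of them lie between 20% and 30%.

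The equal-level genes whose peak share differed most between the tissues still differed by little. Solyc06g062940.2 had a peak share of 24.5% in anthers (exact 95% binomial interval 22.3% to 26.9%) and 30.004% in leaves (27.4% to 32.8%). Solyc05g053780.2 had 27.8% in anthers (25.7% to 30.02%) and 32.9% in leaves (30.4% to 35.5%). In both genes the peak was taller in leaves relative to the reads, and both had a fractional count in 1 library. Solyc11g010230.1 had 58.7% in anthers and 62.4% in leaves, the highest peak share of the equal-level genes in each. In the opposite direction Solyc08g083350.2 had 25.1% in anthers and 21.7% in leaves, and Solyc04g078140.2 had 25.6% and 22.5%. Solyc04g015020.2 had 18.8% (17.2% to 20.4%) in anthers and 15.3% (13.7% to 17.1%) in leaves. The binomial intervals of the tissues did not overlap in 3 of the 140 genes, namely Solyc06g062940.2, Solyc05g053780.2 and Solyc04g015020.2. This count was not made for the other abundant genes, so it gives no comparison with them. The peak share was higher in anthers in 73 genes and in leaves in 67.

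Equal level also held for most peaks taken alone. The log2 ratio of the peak heights, each divided by its library's mapped reads, lay between -0.25 and 0.25 in 121 of the 140 equal-level genes (86.4%). It ranged from -0.33 to 0.49, and the highest value was that of Solyc04g015020.2. Among the 1108 other abundant genes 25 (2.26%) had a peak ratio inside these limits. Since peak and read number come from the same library, this is the same contrast seen through another column and not an independent one.

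The equal-level genes were spread over chromosomes 1 to 12, with 134 of the 140 on chromosomes 1 to 9. Chromosome 1 held 35, chromosome 3 held 17, chromosome 2 held 16, chromosome 4 held 15, chromosome 7 held 14, chromosome 5 held 11, chromosomes 6 and 8 held 9 each and chromosome 9 held 8. Chromosomes 10, 11 and 12 held 2 each, and chromosome 0, which in this naming scheme collects sequence not placed on a chromosome, held 0 of its 7 abundant genes. Of all abundant genes 19.2% lay on chromosome 1, and of the listed genes 12.7%. Its 35 of the 140 equal-level genes were a larger part than either of these shares. As a share of the abundant genes of a chromosome, the equal-level genes were 14.6% on chromosome 1, 14.5% on chromosome 3, 13.6% on chromosome 4 and between 12.1% and 12.2% on chromosomes 2, 5 and 7. The share was 10.5% on chromosome 11 (2 of 19), 9.57% on chromosome 8 (9 of 94), 7.84% on chromosome 9 (8 of 102), 6.90% on chromosome 12 (2 of 29), 6.21% on chromosome 6 (9 of 145) and 4.17% on chromosome 10 (2 of 48). The order of chromosomes 1, 3 and 4 changed with the scaling. No test was made between chromosomes.

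Chromosomes 10 to 12 had few abundant genes, and a smaller share of these were at equal level. Of the 5289 listed genes of these chromosomes 96 (1.82%) had a mean of at least 100 RPM, against 1145 of 20336 (5.63%) on chromosomes 1 to 9. Of these abundant genes 6 of 96 (6.25%) were at equal level on chromosomes 10 to 12 and 134 of 1145 (11.7%) on chromosomes 1 to 9. A low share was not particular to chromosomes 10 to 12, since it was 6.21% on chromosome 6. It was also not common to all of chromosomes 10 to 12. On chromosome 11 it was 10.5% (2 of 19), near the 11.2% over all abundant genes. The median listed gene had a mean of 1.47 RPM on chromosomes 10 to 12 and 5.53 RPM on chromosomes 1 to 9. The identifiers differed as well. The version of the gene model, which in this naming scheme is the digit after the point, was 1 for 99.6% of the listed genes of chromosome 11, 99.8% of chromosome 12 and 79.7% of chromosome 10, against 15.5% to 32.3% on each of chromosomes 1 to 9. The 375 genes of chromosomes 10 to 12 with a model of version 2 had a median level of 12.5 RPM, and 8.00% of them were abundant, compared with 11.5 RPM and 7.35% for the 14594 version 2 genes of chromosomes 1 to 9. Of the abundant version 2 genes 2 of 30 (6.67%) were at equal level on chromosomes 10 to 12 and 133 of 1073 (12.4%) on chromosomes 1 to 9. The version 1 genes had a median level of 1.28 RPM on chromosomes 10 to 12 (4914 genes) and 0.297 RPM on chromosomes 1 to 9 (5742 genes). The part of the gene model version in these levels, and in which genes were found at equal level, was not tested.

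The peak share moved with the gene model version as well. Among genes that met the same conditions on reads and peak, the median anther peak share of version 2 models was 24.4% on chromosomes 1 to 9 and 24.6% on chromosomes 10 to 12. For version 1 models it was 43.8% and 45.2%. The leaf library gave 24.5% and 24.9% for version 2 and 43.4% and 45.8% for version 1. Of the 140 equal-level genes 5 (3.57%) had a version 1 model, against 134 of the 1108 other abundant genes (12.1%). These 5 had the 5 highest anther peak shares of all equal-level genes. Solyc11g010230.1 had 58.7% in anthers and 62.4% in leaves. Solyc12g096220.1 had 49.5% and 48.9%, Solyc12g009650.1 had 44.5% and 46.4%, Solyc11g042930.1 had 40.7% and 42.8%, and Solyc07g043480.1 had 39.9% and 37.5%. Apart from Solyc11g010230.1 these are named after their values were seen. Their levels were ordinary for the group, from 103 to 194 RPM in anthers and from 116 to 205 RPM in leaves.

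**Figure D5:**
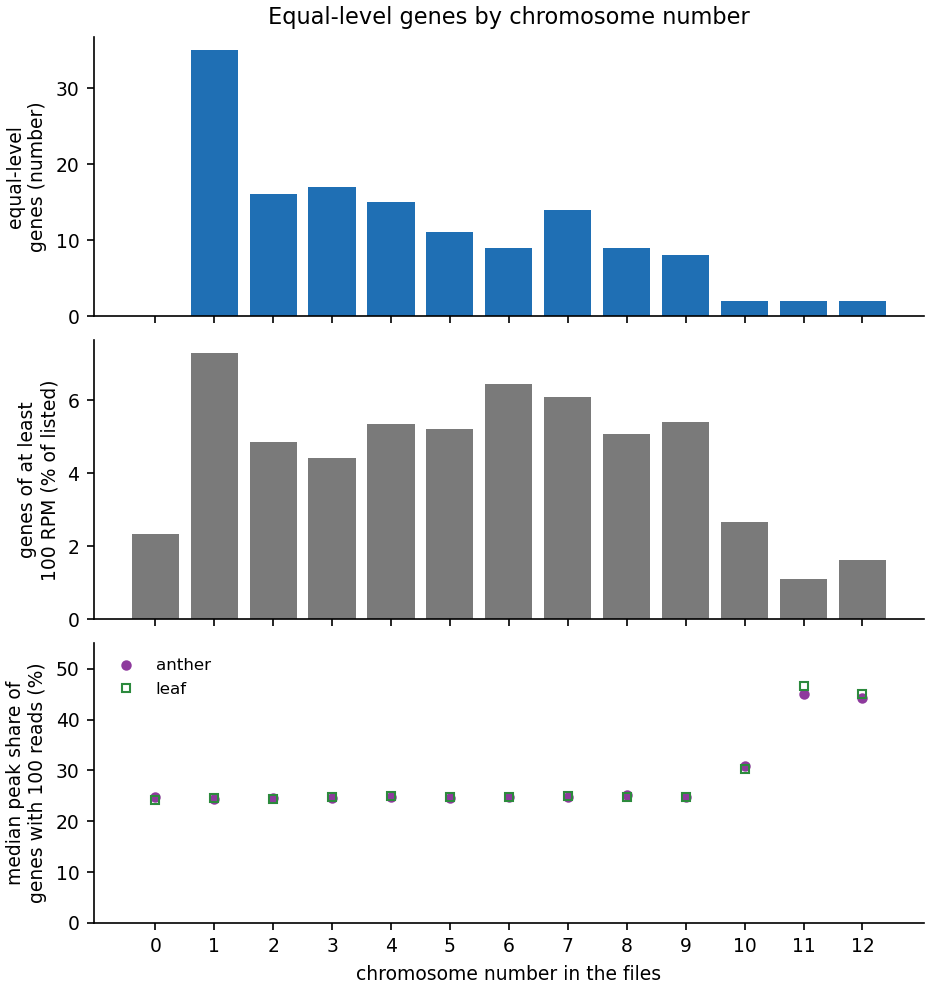
By chromosome number on the x axis, the top panel gives the number of equal-level genes, the middle panel the percentage of listed genes whose mean was at least 100 RPM, and the bottom panel the median peak share in percent of genes with 100 or more reads in each library (filled circles anther, open squares leaf). Chromosomes 10, 11 and 12 have 2 equal-level genes each, the lowest shares of abundant genes among chromosomes 1 to 12, and higher median peak shares in both libraries.

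Among version 2 models 12.2% of the abundant genes (135 of 1109) were at equal level, and among version 1 models 5 of 139. At 10 to 100 RPM the shares of genes with a log2 ratio between -0.25 and 0.25 were closer, 21.8% of 6907 version 2 genes and 16.8% of 1134 version 1 genes. At 1 to 10 RPM they were 19.7% and 20.6%. The versions were farthest apart among the abundant genes, where the version 1 share rests on 5 genes.

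The genes next to equal-level genes had log2 ratios of about the same median size as the genes next to other abundant genes, with no test made. The number in the identifier increases along the chromosome, and neighbours are taken as the next genes whose mean was at least 1 RPM and a number at most 20 away. The equal-level genes had 240 such neighbours, of which 0 were equal-level genes and 22 (9.17%) were abundant. The neighbours of the other abundant genes numbered 1847, of which 22 (1.19%) were equal-level genes and 238 (12.9%) were abundant. Over all 17137 genes whose mean was at least 1 RPM, 140 were equal-level genes and 1248 were abundant. Equal-level neighbours are therefore rare for any gene, and no difference is read from the 0. The median absolute log2 ratio of the neighbours was 0.77 for the equal-level genes and 0.79 for the other abundant genes, and 18.8% and 18.2% of the neighbours had a log2 ratio between -0.25 and 0.25. With other genes allowed between them, 1 pair of equal-level genes had numbers at most 20 apart. It was Solyc07g053260.2, with 263 RPM in anthers and 294 RPM in leaves, and Solyc07g053280.2, with 290 RPM and 246 RPM, and their log2 ratios of -0.16 and 0.24 had opposite signs.

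By identifier number, 79 of the 140 equal-level genes (56.4%) lay in the last of 5 equal ranges of their chromosome's numbers, which held 50.8% of the abundant and 42.8% of the listed genes. The first range held 25 equal-level genes (17.9%), against 22.6% of the abundant and 23.2% of the listed genes. The ranges between held 4, 6 and 26. The strand was given as cri for 75 of the equal-level genes and as wat for 65, and for 550 and 558 of the other abundant genes.

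Which genes counted as equal depended on how the libraries were scaled. TMM scaling, which assumes that most genes do not differ, lowered all log2 ratios by 0.14 and gave 149 equal-level genes, of which 100 were among the 140. Setting the median log2 ratio of the abundant genes to 0 lowered the ratios by 0.18 and gave 150, of which 88 were among the 140. Scaling to the reads on listed genes raised the ratios by 0.07, let 1811 genes pass the level limit and gave 232 equal-level genes, of which 112 were among the 140. A total of 60 genes (42.9% of the 140) were at equal level under all 4 scalings. Their log2 ratios in the original scaling ran from -0.07 to 0.18, their median level was 164 RPM, and 32 of them had whole reads in both libraries. The highest level among these 60 was that of Solyc02g081170.2, with a mean of 549 RPM. None of the 3 genes above 1000 RPM was among them.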

How the data were processed

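One MACE library of anthers and 1 of young leaves were grouped by their tissue label. Estimated counts of reads per gene (all hits) were deposited by the authors and are partly fractional. The value called transcripts per 1000000 per the file headers equalled reads divided by mapped reads times 1000000 within 3.42e-08, so it is named RPM here and holds no length correction by the authors. The peak height is a signal value that the authors deposited with no account of how it was made. Labels state that poly-A RNA was enriched and the last 500 bp sequenced. FastQC was named per the submitters' processing notes. For the aligner, counter, genome build and annotation the entry is "not given in the sources used here". Of the identifiers, 0 matched a RefSeq table of assembly SLM_r2.1, so gene lists planned by description stayed empty and no sequence is shown.

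The libraries were joined by identifier, with missing genes as 0. Pseudocount 1 RPM, limits and minimum of 100 RPM are as stated above. Intervals are exact (Clopper-Pearson) from rounded counts. The members, the naming rule and the lists were chosen with earlier results of these data known. Named genes are the most abundant members, those with whole reads, those with the largest peak share differences and those beside each limit. Computations used Python 3.11.15, pandas 2.3.3, SciPy 1.17.1 and, for TMM, edgeR 4.0.16, and were tested on simulated data. Alternatives were 2 pseudocounts, 3 level filters, 2 band widths, 3 scalings, whole counts alone and 2 peak share conditions. Leaving out chromosomes 10 to 12 or version 1 models was added after seeing the data.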

Additional observations from a re-analysis of the deposited data

How the results depend on the processing

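The number of equal-level genes, 140, became 410 at a mean of at least 50 RPM, 50 at 200 RPM, 8917 with no filter, 76 with limits of 0.15, 299 with limits of 0.5, 232 with scaling to reads on listed genes and 82 with whole counts alone, each by the construction of the setting. It stayed within 1.5 times in the other settings, with 140 and 143 at pseudocounts of 0.1 and 5. The shares of anther and leaf reads, 4.47% and 4.27%, became 4.55% and 4.34% with a pseudocount of 5, 7.20% and 6.85% at 50 RPM, 2.66% and 2.55% at 200 RPM, 13.1% and 12.4% with no filter, 2.12% and 2.02% with limits of 0.15, 9.88% and 9.53% with limits of 0.5, 5.83% and 5.98% with scaling to listed reads, 4.63% and 3.83% with the median ratio set to 0, 2.22% and 2.09% with whole counts, 4.33% and 4.14% without chromosomes 10 to 12, and 4.37% and 4.17% without version 1 models. TMM scaling moved the leaf share to 3.80%. The share of genes with fractional counts, 41.4%, fell to 31.1% with no filter, where low genes enter. Pearson r of the peak share, 0.96, was 0.926 at 200 RPM, 0.922 with no filter, 0.976 with limits of 0.5, 0.971 with TMM scaling, 0.983 with listed reads, 0.971 with the median ratio set to 0, 0.906 without chromosomes 10 to 12 and 0.898 without version 1 models. The median absolute difference in peak share, 1.09 points, became 2.04 points with no filter, where low genes enter, and lay between 0.801 and 1.26 points in the other settings. The equal-level share of chromosome 1, 14.6%, was 10.3% at 200 RPM, 9.17% with limits of 0.15, 28.7% with limits of 0.5 and 31.0% with no filter. For the named genes, 59 of 125 log2 ratios under other pseudocounts or scalings moved by more than their counting error. No paired analysis was possible because there was 1 library per tissue, and for that reason no replicate was dropped. Depth limits the ratio of a gene at 100 RPM to about 0.12 to either side on the log2 scale.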
